A study of Mus musculus with 21 samples.

Results

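The nuclear-encoded subunits of the respiratory chain and of ATP synthase, with the complex I assembly factors that share their naming, were followed in E12.5 mouse hearts, for all but the cardiomyocyte libraries in the ventricular apex. A gene was taken as a member when its name in the count table began with Nduf, Uqcr or Atp5, or with Cox followed by a digit of 4 to 8. This rule found 88 of 24421 genes, on 19 chromosomes, and used no measured value. By role they were 7 core subunits, 29 supernumerary subunits and 7 assembly factors of complex I, 8 subunits of complex III, 18 of complex IV, 5 of the catalytic F1 part of ATP synthase and 10 of its membrane part Fo and stalk. Another 4 genes carried the names without being constitutive subunits, namely Atp5s, Atp5sl, Cox7a2l and Ndufa4l2. None of the mitochondrially encoded subunits was in the table, so none was measured here.

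RNA came from endothelial cells (EC, 2 libraries) and cardiomyocytes (CM, 3 libraries). EC were 60000 GFP-positive cells per library, sorted from ventricles in which Tie2-Cre had switched on the Rosa26fsTrap reporter. CM were labelled only as E12.5 cardiomyocytes, and the sources used here do not say how they were isolated. The names of the 3 CM libraries in the count headers share a tag that those of the 2 EC libraries lack. Its meaning is not given. Lineage therefore cannot be told apart from any difference in how the EC and CM libraries were made. Binding of GATA4, a zinc-finger transcription factor of heart development, was mapped by bioChIP, in which the tagged protein (GATAfb in the labels) is biotinylated only where a Cre is active and is then pulled down on streptavidin. Tie2-Cre, active in endothelial, endocardial and blood cells, gave 3 libraries, and Tnnt2-Cre, active in cardiomyocytes, gave 3, each from 15 to 20 pooled ventricles. Open chromatin was mapped by omni-ATAC in 2 libraries of 40000 sorted Tie2-Cre; Rosa26fsTrap EC. It was also mapped in Gata4 ko and Gata4 het EC, 3 libraries of 20000 sorted cells each. In these embryos 1 mg of tamoxifen, given at E9.5, activated Cdh5(Pac)-CreERT2, and ko and het embryos alike carried this Cre and a Rosa26mTmG reporter. The 2 CM ATAC samples were not analysed here. Nothing in the labels ties replicates to separate litters, so p-values measure the spread between these libraries, which may be technical.

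In the respiratory chain, complex I takes electrons from NADH and complex III passes them through cytochrome c to complex IV, which reduces oxygen. The protons pumped on the way drive ATP synthase, where flow through the Fo ring turns the F1 head that makes ATP. Heart muscle depends on this pathway for contraction, and complex IV carries muscle-type forms of several small subunits that replace the widely expressed forms during heart and muscle development.

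Total counts were 27660790 and 21682362 in the EC libraries and 42948614 to 48393473 in the CM libraries. Of 8 endothelial markers, 8 were higher in EC, and of 8 cardiomyocyte markers, 8 were lower in EC. Cardiomyocyte markers stood in EC at 0.106% to 2.16% of their CM level, and endothelial markers stood in CM at 5.58% to 22.2% of their EC level. Among 8 erythroid markers, 4 were lower and 2 higher in EC, and Hba-a1 and Hbb-bt were at 0 in every library. Their summed level was 26.9 to 27.4 CPM (counts per 1000000 counts) in EC and 1259 to 3109 CPM in CM, which in CM was nearly all the embryonic globin Hbb-y. Leukocyte markers summed to 10.96 to 12.1 CPM in EC and 5.99 to 6.09 CPM in CM, with 4 of 5 tested higher in EC. Epicardial and mesenchymal markers summed to 701 to 722 CPM in EC and 330 to 338 CPM in CM, with 4 of 8 higher and 3 lower in EC, the lower ones being the epicardial Tbx18, Upk3b and Wt1. The ribosomal RNA precursor Rn45s took 5.34% to 5.77% of EC counts and 0.118% to 0.1997% of CM counts. The part of these differences in the results below was not tested beyond the scaling, where leaving out Rn45s, sarcomere markers and globins gave 78 members lower and a median log2 fold change of -1.70, the same to 2 decimals as with them. In bulk RNA, fewer cells of a type and less RNA per cell cannot be told apart.

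Respiratory chain and ATP synthase RNAs were lower in EC than in CM at almost every step of the pathway. Members together took 0.551% and 0.528% of all counts in the EC libraries, against 2.23%, 2.07% and 2.11% in the CM libraries. Their summed level was 5407 and 5181 CPM in EC, against 22457, 20895 and 21598 CPM in CM. The EC libraries lay close to each other and far below the CM libraries. Of 86 members tested by edgeR's quasi-likelihood test over 14851 genes, 78 were lower in EC, 1 was higher and 7 were not called at an adjusted p of 0.05. Over all genes tested 40.2% were called lower and 37.5% higher, so the lineages differed widely, and the members lay almost wholly on 1 side. A test against a 2-fold difference called 56 members lower, beside 18.0% of all genes, and no member higher. The median log2 fold change, EC over CM, was -1.70 over the members and -0.06 over all genes tested. On this scale 61 members were at least 2-fold lower and 30 at least 4-fold lower. The shares of all genes past these folds were not computed, but the lower quartile was -2.29 over the members and -0.92 over all genes tested. The EC and CM libraries did not overlap for 80 of the 86 members tested, beside 85.3% of all genes tested, called or not. They did not overlap for any of the 78 members called lower, which the call on the same libraries favours.

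**Figure D1:**
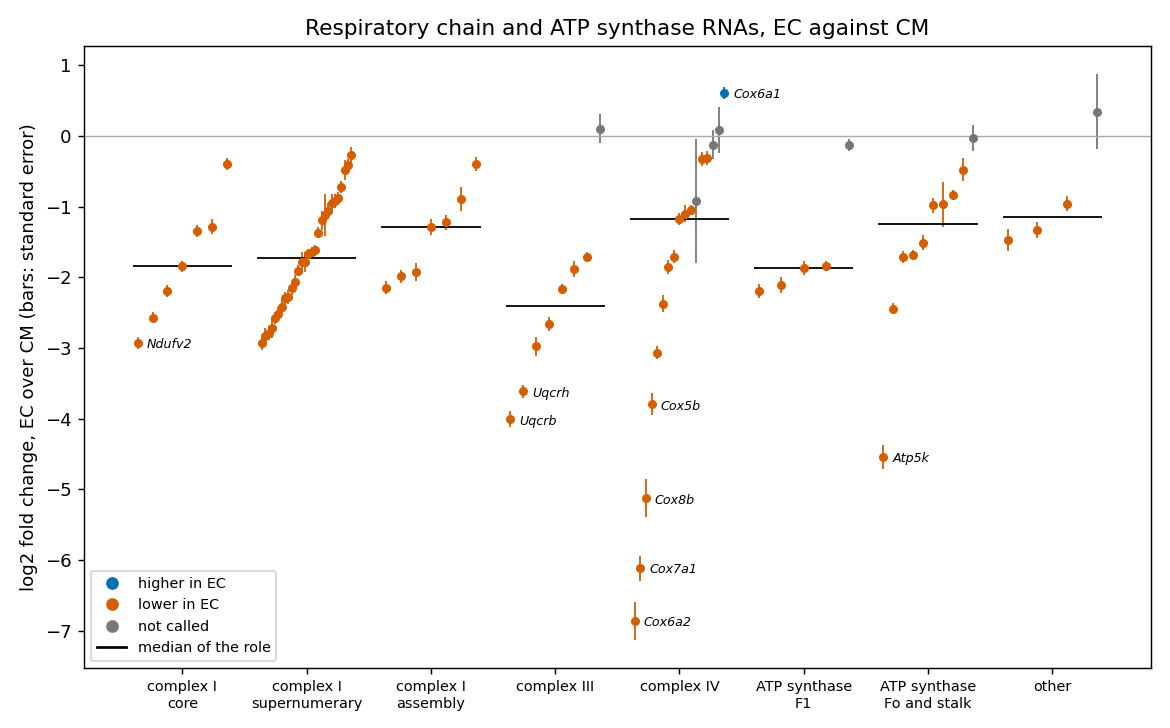
Log2 fold change of EC over CM (y axis) for 86 members by role (x axis), with the standard error from edgeR and a bar at each role's median. Most members lie between -3 and 0, complex IV spreads from -6.86 to 0.61, and Cox6a1 is the only member called higher in EC.

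Members differed in exon length from most genes, with a median of 708 bases against 2194 over the table, and short genes were low in EC in general. Other genes with up to 500 exon bases had a median log2 fold change of -2.56 (n = 301), and 216 of them were called lower. Medians of the other genes were -0.42 over 500 and up to 1000 bases, -0.08 up to 2000 bases and 0.03 above 2000. In the same length classes the medians of members were -1.88 (n = 15), -1.32 (n = 42), -1.81 (n = 22) and -1.87 (n = 7). The members over 500 bases were thus further below 0 than other genes of their length, and those up to 500 bases were not. Across the 86 members the log2 fold change followed exon length little (Spearman rho -0.02), as a description of genes that share these libraries. With the CM level per length rho was -0.62. The CM level is also the divisor of the fold change, which by itself favours a negative rho, so no conclusion is drawn from this value.

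Complex I starts the chain, and all 7 of its core subunits were lower in EC (median log2 fold change -1.85). Ndufv2, an iron-sulfur subunit of the module that oxidises NADH, had 88.1 and 75.7 CPM in EC, against 624, 612 and 633 CPM in CM. The CM libraries were tightly grouped and several times above either EC library. Its log2 fold change was -2.93 ± 0.09 (SE, adjusted p = 3.77e-10). Ndufs1, an iron-sulfur subunit of the same module, had 105 CPM in both EC libraries, against 658, 609 and 608 CPM in CM, and Ndufv1, which binds NADH and flavin, had 84.7 and 73.7 against 379, 357 and 351 CPM. The groups were clearly apart for both. Ndufs8, an iron-sulfur subunit on the route to quinone, differed least, with 34.8 and 32.1 CPM in EC, against 45.4, 42.8 and 43.9 CPM in CM (log2 fold change -0.40 ± 0.08, adjusted p = 0.00136).

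Supernumerary subunits surround that core, and all 28 tested were lower in EC, with log2 fold changes from -2.92 to -0.27 and a median of -1.73. Ndufb9, in the membrane arm, was furthest apart, with 44.3 and 35.1 CPM in EC, against 318, 286 and 304 CPM in CM. Every CM library was several times above both EC libraries, and the log2 fold change was -2.92 ± 0.11 (SE, adjusted p = 1.72e-09). Ndufa5, in the arm that faces the matrix, had the highest CM level per length of this role, 679 ± 47.5 RPKM (reads per exon kilobase and per 1000000 reads; SD, n = 3), against 114 ± 3.61 RPKM in EC (SD, n = 2). At the other end Ndufb3, a membrane arm subunit, had 13.8 and 13.6 CPM in EC, against 17.8, 16.0 and 15.9 CPM in CM. Its libraries did not overlap, but the difference was small (log2 fold change -0.27 ± 0.11, adjusted p = 0.0445) and missed the threshold in every fit that left out a library. Ndufs5 was at 0 in all 5 libraries. On the same strand BC002163 overlapped 95.1% of the exon bases of Ndufs5 and had 74 and 49 counts in EC, against 955, 699 and 313 in CM. Reads within such an overlap are not assigned by the counter's default, so the zero says nothing of Ndufs5 expression.

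All 7 complex I assembly factors were lower in EC as well, although their levels were low in both lineages. Ndufaf4 had 23.4 and 24.0 CPM in EC, against 110, 97.2 and 107 CPM in CM (log2 fold change -2.15 ± 0.09, adjusted p = 3.56e-09). Ndufaf2, which binds a late assembly intermediate and had the highest level per length of the role, differed least, with 25.4 and 27.5 CPM in EC, against 32.2, 37.1 and 35.2 CPM in CM (-0.40 ± 0.10, adjusted p = 0.00337). No library of either gene overlapped the other lineage. Ndufaf3, which acts early with Ndufaf4, stood at 4.14 RPKM in EC and 7.67 RPKM in CM.

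In complex III, 7 of 8 subunits were lower in EC, and the median log2 fold change of -2.41 was the furthest from 0 of the 8 roles. Uqcrb, which lies beside the quinone site, had 46.5 and 38.4 CPM in EC, against 735, 647 and 668 CPM in CM. Uqcrh, the hinge protein that meets cytochrome c1, had 84.9 and 74.4 CPM in EC, against 1008, 947 and 967 CPM in CM. Both genes were more than 10-fold apart between lineages, with replicates that differed little. Their log2 fold changes were -4.01 ± 0.11 (adjusted p = 2.17e-10) for Uqcrb and -3.61 ± 0.09 (adjusted p = 1.27e-10) for Uqcrh. Uqcr10, a small subunit, followed at -2.98 ± 0.14, and Uqcrfs1, the Rieske iron-sulfur protein, at -2.66 ± 0.10. The core proteins Uqcrc1 and Uqcrc2 were at -1.72 and -2.16. Uqcrq was the exception, with 27.8 and 23.1 CPM in EC, against 16.6, 24.6 and 30.4 CPM in CM. Its libraries overlapped and it was not called (0.10 ± 0.21, adjusted p = 0.673). RefSeq annotates 2 pseudogenes named after Uqcrh, and reads shared with such copies make its level uncertain.

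**Figure D2:**
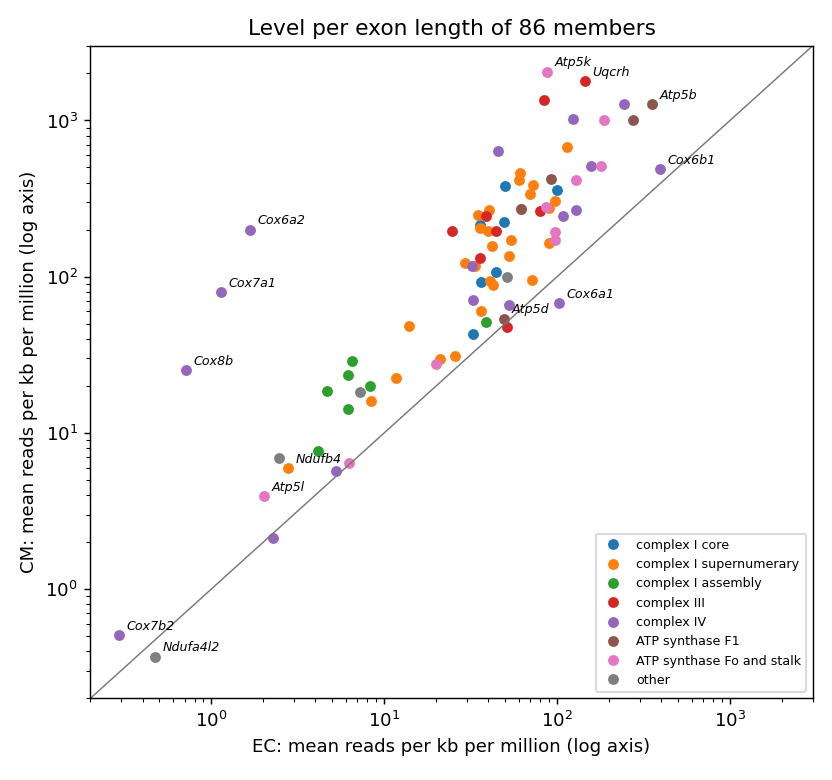
Mean RPKM in EC (x axis) and in CM (y axis) for 86 members, both axes logarithmic, coloured by role, with the line of equal levels. Most members lie above the line, while Cox6a2, Cox7a1 and Cox8b stand far above the members of like EC level.

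Complex IV, the terminal oxidase, held both ends of the range: 13 of its 17 tested members were lower in EC, 1 was higher and 3 were not called, with a median of -1.18. The greatest differences of all members were those of its muscle-type subunits. Cox6a2, the heart and muscle form of subunit VIa, had 1.31 and 0.906 CPM in EC, against 106, 122 and 166 CPM in CM. Cox7a1, the muscle form of subunit VIIa, had 0.425 and 0.408 CPM in EC, against 30.3, 28.8 and 28.1 CPM in CM. Cox8b, the muscle form of subunit VIII, had 0.248 and 0.272 CPM in EC, against 9.20, 8.24 and 9.94 CPM in CM. For each of them the EC libraries were close to 0 and the CM libraries far above. The log2 fold changes were -6.86 ± 0.27 for Cox6a2 (adjusted p = 2.19e-09), -6.11 ± 0.18 for Cox7a1 (adjusted p = 2.75e-10) and -5.12 ± 0.27 for Cox8b (adjusted p = 2.35e-08). In EC these genes stood at 0.844%, 1.43% and 2.85% of their CM level, beside a median of 0.938% for the 8 cardiomyocyte markers. Cox7a1 and Cox8b have 366 and 363 exon bases, and neither fell below the lower quartile of -6.15 for other genes up to 500 bases. Cox6a2 has 659, and other genes over 500 and up to 1000 bases had a lower quartile of -1.48. How far exon length moved these differences was not tested.

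Widely expressed complex IV subunits differed by less and not in step. Cox5b, which binds zinc, had 29.5 and 22.6 CPM in EC, against 301, 393 and 395 CPM in CM (log2 fold change -3.79 ± 0.16, adjusted p = 3.58e-09). Cox7b had 121 and 125 CPM in EC, against 1103, 964 and 1022 CPM in CM (-3.06 ± 0.09, adjusted p = 2.68e-10). The lineages were far apart for both. Cox6c reached the highest CM level per length of the complex, 1267 ± 196 RPKM (SD, n = 3), against 245 ± 5.10 RPKM in EC (SD, n = 2). Cox4i1, the ubiquitous regulatory subunit IV, was at -1.71, and Ndufa4, first named for complex I and now placed in complex IV, at -1.05. Cox6b1 and Cox7c were only slightly lower, at -0.31 ± 0.10 and -0.32 ± 0.10, the call of Cox6b1 being lost without EC replicate 1 (-0.18, adjusted p = 0.179). Cox6b1 had the highest level of any member in EC, 394 ± 53.7 RPKM (SD, n = 2), against 487 ± 44.2 RPKM in CM (SD, n = 3). RefSeq lists 1 pseudogene each named after Cox5b and Cox7c. Cox8c, a testis form, was at 0 in every library.

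Cox6a1, the widely expressed form of subunit VIa, went the other way. It had 52.7 and 57.0 CPM in EC, against 35.6, 33.6 and 38.7 CPM in CM. Every EC library lay above every CM library, and the log2 fold change was 0.61 ± 0.09 (SE, adjusted p = 8.70e-05), below 2-fold. Of the 3 not called, Cox4i2, the form of subunit IV known from lung and low oxygen, had 1.24 and 2.08 CPM in EC, against 1.40, 1.39 and 1.86 CPM in CM (0.08 ± 0.32). Cox6b2, a testis form, had 2.98 and 3.53 against 3.21, 3.58 and 3.84 CPM (-0.13 ± 0.21). Cox7b2, another testis form, had at most 0.317 CPM in any library and was 0 in the first EC library. None of these 3 separated the lineages.

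The balance within paralogue pairs was compared per exon length, since only a level per length can be set against that of another gene. Cox6a2 made up 1.97% and 1.27% of Cox6a2 and Cox6a1 together in EC, against 70.6%, 74.7% and 77.6% in CM. Cox7a1 made up 3.42% and 3.40% of Cox7a1 and Cox7a2 in EC, against 39.1%, 42.1% and 40.3% in CM. Cox8b made up 0.609% and 0.710% of Cox8b and Cox8a in EC, against 9.23%, 9.08% and 9.59% in CM. By RNA, CM at this stage thus had mostly the muscle form of subunit VIa, a mixture of forms of VIIa and mostly the widely expressed form of VIII. EC had almost wholly RNA of the widely expressed form of each, and protein was not measured. Cox7a1 and Cox8b have 366 and 363 exon bases, in the length class low in EC in general, while Cox7a2 and Cox8a have 754 and 545. How far this, or RNA of other cells in the CM libraries, moved the shares was not tested. In log2 ratio, EC minus CM, the pairs differed by -7.50, -4.27 and -3.95. Cox4i2 made up 1.03% and 1.85% of its pair with Cox4i1 in EC, against 0.332%, 0.402% and 0.516% in CM (1.77), with Cox4i2 itself not called and Cox4i1 lower in EC.

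Ndufa4l2, known as a target of the low-oxygen response, was 0.369% and 0.366% of its pair with Ndufa4 in EC, against 0.195%, 0.0736% and 0.148% in CM. Its own level stayed under 0.5 CPM in every library and was not called (log2 fold change 0.34 ± 0.53). For each of these 5 pairs the 5 libraries did not overlap between lineages. Each gave an exact two-sided permutation p of 0.1, the smallest that 2 against 3 libraries allow, and an adjusted p of 0.16 over the 8 pairs tested, so none can pass the threshold by that test. Cox6b2 made up 1.34% and 1.31% of its pair with Cox6b1 in EC, against 0.961%, 1.27% and 1.29% in CM (log2 ratio difference 0.19, exact permutation p = 0.5), a small gap without overlap. Atp5g1 made up 74.6% and 77.3% of Atp5g1 and Atp5g2 in EC, against 85.1%, 76.3% and 80.5% in CM, and 16.6% and 17.3% of Atp5g1 and Atp5g3, against 17.0%, 10.6% and 10.6% (exact p = 0.3 for each). The pair of Cox7b2 with Cox7b was not tested because of the zero.

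**Figure D3:**
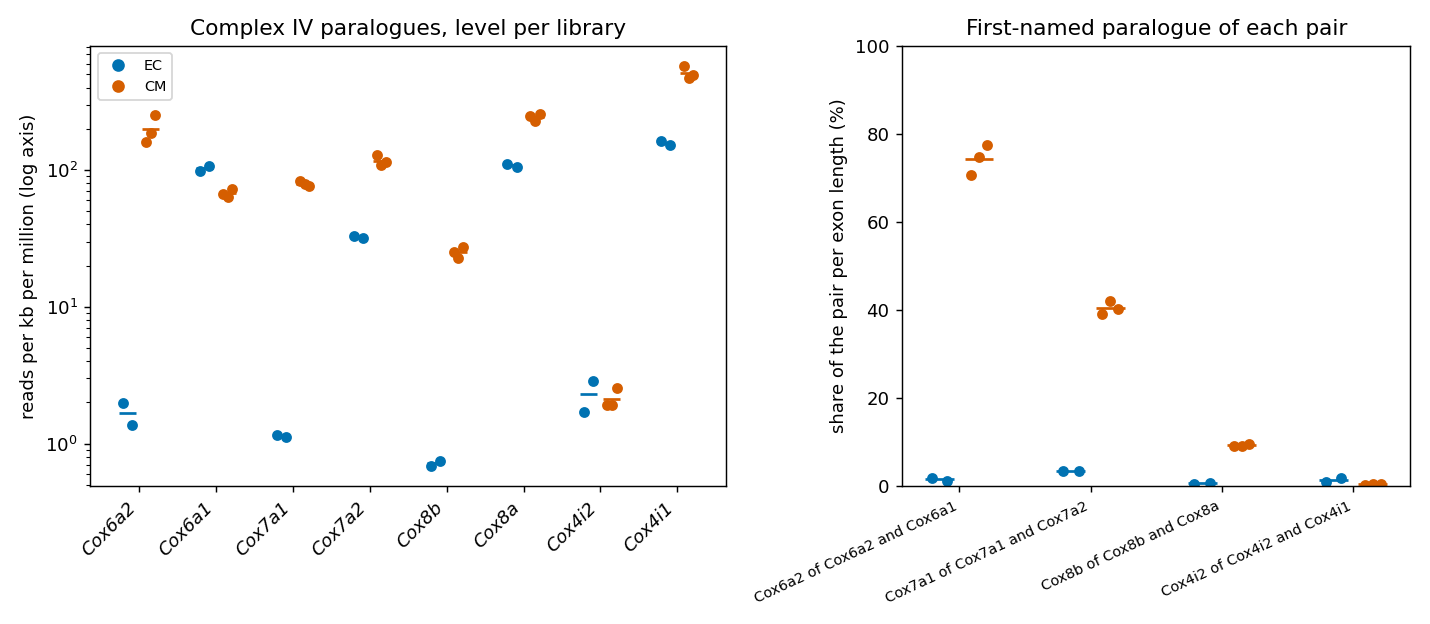
Left, RPKM of 4 complex IV paralogue pairs in each library on a log axis, with bars at the group means. Right, the share of the first-named paralogue in its pair in percent: Cox6a2 is at 1.27% to 1.97% in EC and at 70.6% to 77.6% in CM.

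The promoters of these complex IV genes are shown because GATA4 and ATAC peaks at several of them are described further on. RefSeq promoter sequences on GRCm38.p6, 250 bases before to 50 after the start, were found for 70 of 88 members by symbol, among them those below, while Cox6a2 had no entry. Capitals mark matches on either strand: AGATAA (bound by zinc fingers of GATA factors) in Cox7a1, CCGGAAG (ETS) in Cox8a and Cox6a1, and the NRF1 palindrome in Cox6a1. In Cox8b they mark TATAAA (the letters of the TATA box) and CAGCTG (E-box). The Cox7a2 window holds no match to these.
Cox7a1, chr7:30183921-30184220, plus strand: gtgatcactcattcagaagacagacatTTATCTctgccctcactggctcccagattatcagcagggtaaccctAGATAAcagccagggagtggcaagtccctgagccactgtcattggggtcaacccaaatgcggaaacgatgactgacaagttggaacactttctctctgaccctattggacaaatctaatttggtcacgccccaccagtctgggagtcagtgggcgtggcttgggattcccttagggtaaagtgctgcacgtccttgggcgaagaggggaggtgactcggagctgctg
Cox7a2, chr9:79759804-79760103, minus strand: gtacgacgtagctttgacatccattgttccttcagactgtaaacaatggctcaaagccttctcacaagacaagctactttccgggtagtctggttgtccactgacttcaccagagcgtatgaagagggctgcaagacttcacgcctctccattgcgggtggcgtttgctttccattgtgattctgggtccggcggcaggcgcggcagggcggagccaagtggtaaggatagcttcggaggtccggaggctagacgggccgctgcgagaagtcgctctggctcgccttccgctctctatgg
Cox8b, chr7:140900397-140900696, minus strand: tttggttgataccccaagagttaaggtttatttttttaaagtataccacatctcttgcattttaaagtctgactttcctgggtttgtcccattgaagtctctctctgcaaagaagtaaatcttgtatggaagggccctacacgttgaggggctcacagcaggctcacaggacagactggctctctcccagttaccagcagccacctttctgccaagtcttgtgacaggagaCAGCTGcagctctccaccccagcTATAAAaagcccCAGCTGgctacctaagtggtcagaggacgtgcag
Cox8a, chr19:7217567-7217866, minus strand: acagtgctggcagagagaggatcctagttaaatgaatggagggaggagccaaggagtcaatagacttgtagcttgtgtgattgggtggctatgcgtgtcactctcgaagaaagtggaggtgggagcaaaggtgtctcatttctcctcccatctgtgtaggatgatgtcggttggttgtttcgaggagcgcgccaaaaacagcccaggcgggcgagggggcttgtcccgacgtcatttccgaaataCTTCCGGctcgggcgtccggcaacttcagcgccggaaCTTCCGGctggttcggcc
Cox6a1, chr5:115348909-115349208, minus strand: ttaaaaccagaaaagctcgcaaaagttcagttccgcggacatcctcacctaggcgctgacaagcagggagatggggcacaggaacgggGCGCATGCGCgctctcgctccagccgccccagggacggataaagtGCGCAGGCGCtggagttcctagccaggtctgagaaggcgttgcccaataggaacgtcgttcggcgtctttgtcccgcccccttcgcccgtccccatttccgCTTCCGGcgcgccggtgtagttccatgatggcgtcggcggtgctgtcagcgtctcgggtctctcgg

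The GATA matches of Cox7a1 begin at positions -223 and -177 from the start. In Cox8b the TATAAA match begins at position 5, downstream of the start used, and the CAGCTG matches at -19 and 17. Both strands were searched, and matches to different motifs were counted even where they overlapped. Across the 70 promoters AGATAA was in 8.57%, against 11.2% of all 32851 promoter windows of this length. The NRF1 motif was in 22.9% of member windows and 4.60% of all, CCGGAAG in 20.0% and 8.86%, AAGATGGC (YY1) in 11.4% and 2.75%, and AAGGTCA (ERR) in 10.0% and 4.72%. TATAAA was in 10.0% and 13.6%, CAGCTG in 8.57% and 16.3%, and the MEF2 motif in 2.86% and 3.69%. GGGCGG (Sp1) was in 42.9% and 35.7%, and CCAAT in 42.9% and 37.4%. The AGATAA-bearing members were Atp5g1, Atp5g3, Cox7a1, Cox7c, Ndufa12 and Ndufc2. A match is a run of letters, not a binding site, and a window without one says nothing of the factor.

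In the F1 head of ATP synthase, 4 of 5 subunits were lower in EC, and they differed by like amounts. Atp5b, the catalytic beta subunit, had 675 and 660 CPM in EC, against 2391, 2369 and 2422 CPM in CM, and Atp5a1, the alpha subunit, had 689 and 652 against 2728, 2315 and 2311 CPM. These were the most abundant members in CM by counts, and the lineages were far apart. Log2 fold changes were -1.84 ± 0.07 for Atp5b, -1.87 ± 0.10 for Atp5a1, -2.11 ± 0.11 for Atp5e and -2.19 ± 0.09 for Atp5c1, the subunit of the rotating shaft (adjusted p of 2.93e-08 or less). Atp5d, the delta subunit at the foot of the same shaft, did not follow, with 47.7 and 44.1 CPM in EC, against 48.2, 48.7 and 53.7 CPM in CM (-0.13 ± 0.09, adjusted p = 0.194). Its EC libraries lay just below its CM libraries.

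Of the 10 Fo and stalk subunits, 9 were lower in EC, with a median of -1.25. Atp5k, the small subunit e that helps hold the enzyme's dimers, had 31.5 and 19.7 CPM in EC, against 591, 608 and 595 CPM in CM. It had the highest CM level per length of all members, 2048 ± 31.0 RPKM (SD, n = 3), against 87.6 ± 28.6 RPKM in EC (SD, n = 2). The CM libraries were tight and far above the EC libraries, which differed from each other (log2 fold change -4.54 ± 0.17, adjusted p = 1.85e-09). RefSeq has 4 pseudogenes named after Atp5k, so its level is uncertain. With 292 exon bases it also falls in the length class that was low in EC in general. Atp5h, in the peripheral stalk, had 110 and 103 CPM in EC, against 603, 545 and 588 CPM in CM (-2.44 ± 0.08, adjusted p = 7.78e-10).

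The membrane c ring is coded by 3 genes with the same mature protein, and their differences were unlike. Atp5g3 was at -0.98 ± 0.11 (adjusted p = 8.17e-06) and Atp5g1 at -0.48 ± 0.16 (adjusted p = 0.0203). Atp5g2 had 4.33 and 3.80 CPM in EC, against 3.89, 4.52 and 4.06 CPM in CM (-0.03 ± 0.19, not called). The call of Atp5g1 was lost without EC replicate 1, EC replicate 2 or CM replicate 1 (adjusted p = 0.0885, 0.0699 and 0.0532). Atp5l, subunit g, had 0.815 and 1.27 CPM in EC, against 1.67, 2.17 and 2.199 CPM in CM (-0.97 ± 0.32, adjusted p = 0.0171), a call lost without EC replicate 1 or CM replicate 2 (adjusted p = 0.0927 and 0.0701). Atp5l, Atp5g2 and the complex I subunit Ndufb4 had a few CPM although they belong to the same enzymes as far more abundant members. Whether their reads were lost to near-identical copies was not tested, and these levels are uncertain. Levels per length within Fo spanned 91.4-fold in EC and 523-fold in CM.

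Among the 4 remaining genes, Cox7a2l, which joins complexes III and IV into supercomplexes, had 61.5 and 56.5 CPM in EC, against 131, 109 and 103 CPM in CM (log2 fold change -0.96 ± 0.11, adjusted p = 1.05e-05). Atp5s was at -1.47 ± 0.16 and Atp5sl at -1.33 ± 0.12. All 3 were lower in EC, and the fourth, Ndufa4l2, is described above.

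Pathway genes outside the naming rule lay on the same side. Over 7 lists of 58 tested genes, 48 were lower and 2 higher in EC. Complex II, which feeds electrons from succinate, had 4 of 4 subunits lower, from -2.19 for Sdhc to -1.59 for Sdhb. Of 7 electron carriers and donors 5 were lower, and Cycs, cytochrome c, had 41.6 and 44.1 CPM in EC, against 465, 397 and 411 CPM in CM (-3.31 ± 0.10, adjusted p = 2.97e-10). Among other complex I assembly factors 6 of 8 were lower, led by Foxred1 (-1.93), and among complex III assembly factors 5 of 6, led by Uqcc1 (-1.89). Other genes tied to ATP synthase had 6 of 6 lower, among them the inhibitor Atpif1 (-1.13), and cristae and supercomplex genes 5 of 7, led by Chchd3 (-2.39). Of 20 complex IV assembly factors 17 were lower, among them the copper chaperone Cox17 (-1.95) and Pet100 (-2.56).

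Against that direction, Cox16 had 10.3 and 11.3 CPM in EC, against 2.42, 1.98 and 1.91 CPM in CM (2.36 ± 0.18, adjusted p = 3.99e-07). Cox18 had 6.95 and 7.52 CPM in EC, against 6.06, 5.34 and 5.03 CPM in CM (0.40 ± 0.16, adjusted p = 0.0424). Both are assembly factors of complex IV, and their libraries did not overlap. The citric acid cycle, which supplies NADH, had 12 of 13 enzymes lower (median -1.76), mitochondrial ribosomal proteins 56 lower and 8 higher of 77 (median -0.76), and cytoplasmic ribosomal proteins 41 lower and 30 higher of 81 (median -0.19). Set beside these, the median of -1.70 for the members was near that of the citric acid cycle.

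GATA4 binding near these genes was then examined, to see whether it differs between lineages as the RNA does. Peak lists differed greatly in length, with 17682, 2734 and 25936 GATA4 peaks in Tie2-Cre replicates 1 to 3 and 22814, 3603 and 30447 in Tnnt2-Cre replicates 1 to 3. A peak within 1 kb of the start site was found for 21, 4 and 38 members in the Tie2-Cre libraries, against 37, 6 and 45 in the Tnnt2-Cre libraries. These were 23.9%, 4.5% and 43.2% of members, against 42.05%, 6.8% and 51.1%. Over genes tested for RNA the shares were 21.5%, 2.2% and 33.3%, against 28.5%, 2.8% and 39.5%. Within 50 kb it was found for 67, 20 and 80 members with Tie2-Cre, against 74, 24 and 82 with Tnnt2-Cre. As shares of members these were 76.1%, 22.7% and 90.9%, against 84.1%, 27.3% and 93.2%. The genes tested for RNA gave 69.2%, 16.0% and 81.6%, against 78.2%, 19.2% and 86.3%. The second library of each lineage was low and had the shortest list, and the lineages overlapped. The differences, Tie2-Cre minus Tnnt2-Cre, were -8.33 members within 1 kb (exact permutation p = 0.6, two-sided) and -4.33 within 50 kb (p = 0.7), where the smallest possible p is 0.1. Without Tie2-Cre replicate 2 they were 0.17 and 13.5. Without Tnnt2-Cre replicate 1 or 3 the difference within 50 kb was 2.67 or 6.67.

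**Figure D4:**
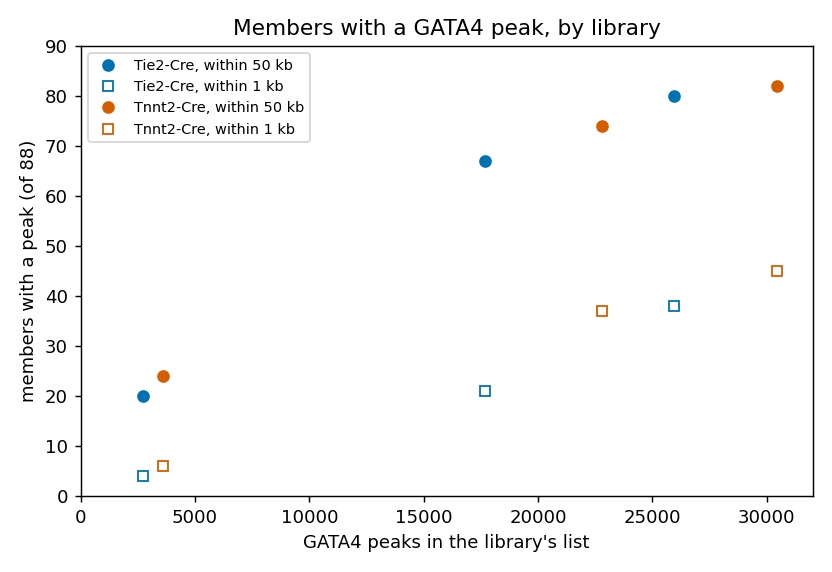
Number of members, of 88, with a GATA4 peak within 50 kb (filled) or 1 kb (open) of the start site (y axis) against the number of peaks in the library's list (x axis). The counts climb with list length in both lineages, and the second library of each has the shortest list and the fewest members, 20 and 24 within 50 kb.

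Regions merged over the 6 libraries were called selective when at least 2 of 3 libraries of a lineage and 0 of the other had a peak, and shared when at least 2 of 3 of both had. Within 50 kb, 21 of 88 members (23.9%) had a Tie2-Cre-selective region, 32 (36.4%) a Tnnt2-Cre-selective region and 45 (51.1%) a shared region. The genes tested for RNA gave 25.9%, 38.6% and 43.1%, so the members were near the background for the selective classes. Within 1 kb, 0 members had a Tie2-Cre-selective region (1.89% of tested genes), 4 a Tnnt2-Cre-selective region (4.55%, against 4.64%) and 15 a shared region (17.0%, against 12.7%). These shares follow list length as well, and a missing peak does not show unbound chromatin. Counts of regions near members were 22, 38 and 67, but for only 7, 16 and 19 of them was the nearest start that of a member.

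The 4 members with a Tnnt2-Cre-selective region at the promoter were Ndufv2, Cox6a1, Uqcrc2 and Cox6a2. At Cox6a2 the region chr7:128206150-128206579 (mm10) lay over the start site, with a peak in Tnnt2-Cre replicates 1 and 3 (top 28.2% and 25.2% of their lists by rank) and in no Tie2-Cre library. No ATAC library of EC, ko or het had a peak there. At Cox6a1, by contrast, the region chr5:115349141-115349501, 186 bases upstream and reaching over 68 bases of the window printed above, was open in both EC libraries, and Cox6a1 was the member higher in EC. The other regions were chr17:66100962-66101421, 138 bases downstream of the Ndufv2 start, and chr7:120635502-120635787, 313 bases downstream of the Uqcrc2 start. Both were open in both EC libraries, and Tie2-Cre replicate 3 had another peak within 1 kb of Uqcrc2. Just past 1 kb, a shared region, chr5:115347548-115347924, lay 1031 bases downstream of the Cox6a1 start. It had peaks in Tie2-Cre replicates 1 and 3 (top 58.3% and 7.21%), so Cox6a1 was not free of Tie2-Cre peaks nearby. RNA of Ndufv2, Uqcrc2 and Cox6a2 was lower in EC and that of Cox6a1 higher. Promoter regions of this class thus went with either direction, the higher one resting on Cox6a1 alone.

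Cox7a1, low in EC RNA, had a shared region, chr7:30183791-30184158, ending 13 bases before the start. It covered bases 1 to 238 of the printed window, with both GATA matches. It ranked in the top 56.4% and 75.7% of the lists of Tie2-Cre replicates 1 and 3, against the top 7.54% and 3.99% of Tnnt2-Cre replicates 1 and 3, and had no peak in the second library of either lineage. The peak was thus low in the Tie2-Cre lists and high in the Tnnt2-Cre lists, but ranks from lists of unequal length show no change in binding. The promoter was open in both EC libraries and in all 6 ko and het libraries. Cox8b had no GATA4 peak within 1 kb and no ATAC peak there in any library.

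Other shared promoter regions lay at genes of complexes I, III and IV and of ATP synthase, among them Uqcrc1, Ndufa4, Atp5g1 and Atp5g3. Those described next were among the best-ranked, with ranks that varied between libraries. Ndufa9, a complex I subunit with a nucleotide-binding fold, had a region over its start, chr6:126848779-126849645, with a peak in all 6 libraries, ranking between the top 0.984% (Tie2-Cre replicate 1) and the top 80.0% (Tnnt2-Cre replicate 2). Ndufaf1, an assembly factor of the membrane arm, had chr2:119662628-119663249, which ranked at 19.5% and 3.35% in Tie2-Cre replicates 1 and 3, against 9.04% and 1.28% in Tnnt2-Cre replicates 1 and 3. Ndufb3 had chr1:58586286-58586785, which also lies over the start of Fam126b and ranked at 6.97% and 12.9% in Tie2-Cre replicates 1 and 3, against 22.9% and 2.98% in Tnnt2-Cre replicates 2 and 3. Atp5l had chr9:44920921-44921394, 179 bases upstream, in all 6 libraries, at 4.99%, 3.66% and 11.1% in Tie2-Cre replicates 1 to 3, against 75.0%, 43.7% and 22.5% in Tnnt2-Cre replicates 1 to 3. Ndufa9 and Ndufaf1 RNA was lower in EC, with log2 fold changes of -1.67 and -1.29, beside peaks in both lineages.

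Away from promoters the best-ranked selective regions often lay nearer another gene, and the rank given for each is its best over the libraries with a peak. With Tnnt2-Cre the first was chr9:57550035-57550479, 28803 bases downstream of the start of Cox5a (top 1.27%) but nearest to Mpi, followed by chr13:114344116-114344701, 43393 bases downstream of the Ndufs4 start (1.67%), and chr13:73336805-73337315, 8323 bases upstream of Ndufs6 (2.46%) and nearest to Mrpl36. Each had a peak in all 3 Tnnt2-Cre libraries and no ATAC peak in the ko or het libraries. Their ranks in Tnnt2-Cre replicate 2 were 45.5%, 28.6% and 38.7%. The next 3, near Ndufb11, Ndufaf5 and Ndufaf3, ranked at best at 13.1%, 13.3% and 15.4%. With Tie2-Cre the first were chr13:30521504-30521974, 23342 bases downstream of the Uqcrfs1 start (4.50% in replicate 3, but 56.8% in replicate 1), and chr8:120641392-120641712, 26513 bases upstream of Cox4i1 (4.98% in replicate 1, but 59.8% in replicate 3), both open in every ATAC library. Regions near Atp5g3, Ndufa5, Ndufaf4 and Atp5o ranked at best from 17.6% to 21.1%. Of the 22 Tie2-Cre-selective regions 21 were open in both EC libraries, against 20 of the 38 Tnnt2-Cre-selective and 66 of the 67 shared regions. The same shares over all regions of each class were not computed, so these counts cannot be read as particular to regions near members.

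Most members, like most genes tested, had an ATAC peak at their promoter in EC. An ATAC peak lay within 1 kb of the start of 84 of 88 members in both EC libraries, beside 91.3% of genes tested for RNA. The 4 without were Cox6a2, Cox7b2, Cox8b and Cox8c, tissue-restricted complex IV forms, and they lacked a peak in the ko and het libraries too. Of the 78 members called lower in EC, Cox6a2 and Cox8b alone lacked this peak. Ndufa4l2 had a promoter peak in both EC libraries and in no ko or het library, and Cox7b lacked its peak in het replicate 4.

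**Figure D5:**
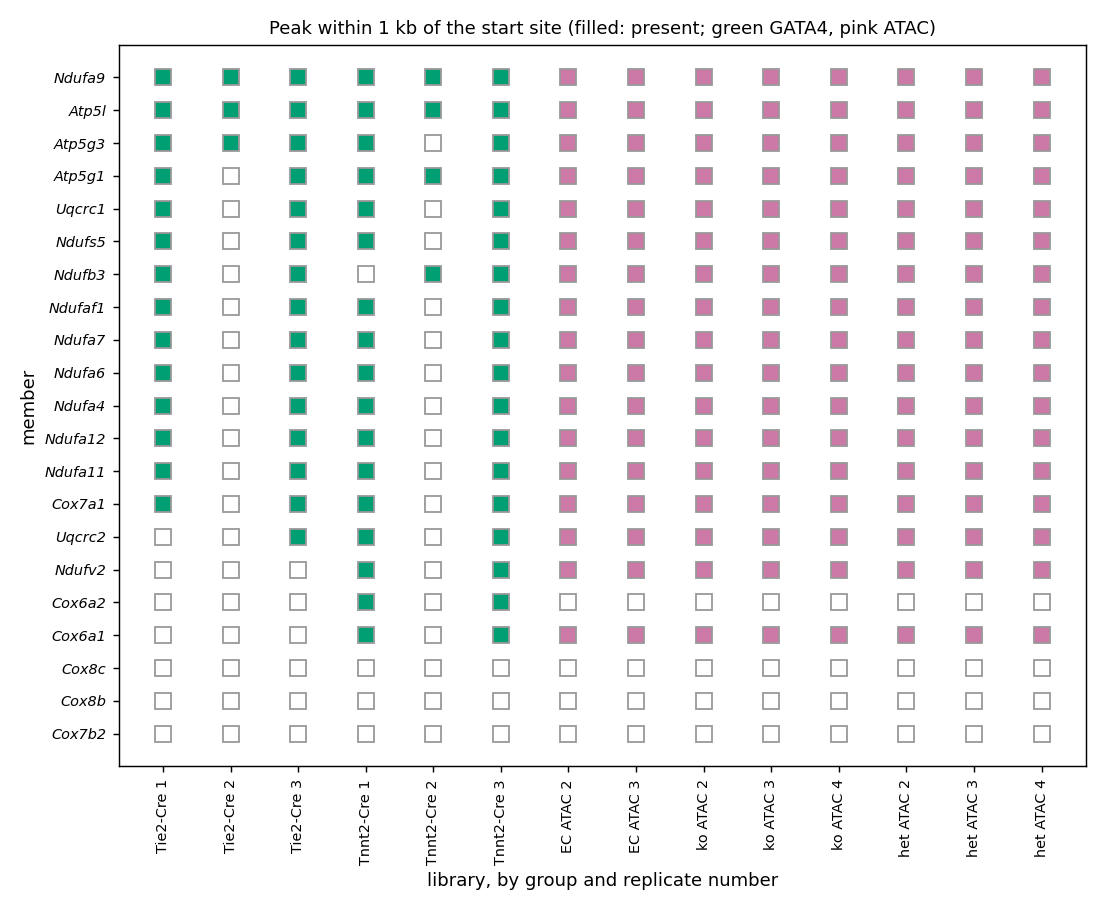
Filled squares mark a peak within 1 kb of the start in each GATA4 and ATAC library (x axis) for members with a reproducible promoter GATA4 region or no EC promoter peak (y axis). Cox6a2 has GATA4 peaks in Tnnt2-Cre replicates 1 and 3 and no ATAC peak, while Cox7b2, Cox8b and Cox8c have neither.

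The number of members with a promoter peak in Gata4 ko EC was within 1 of that in het EC. A promoter peak was present at 83, 83 and 83 members in the ko libraries, against 83, 83 and 82 in the het libraries (difference 0.333, exact permutation p = 1, smallest possible 0.1). These counts were 94.32% of members in each library, except 93.18% in het replicate 4. Over genes tested for RNA the shares were 88.02%, 87.57% and 84.91% in ko, against 88.11%, 88.05% and 85.55% in het. Most genes tested thus had a promoter peak in ko and in het, as the members did. Peaks within 50 kb of a member numbered 627, 604 and 523 in ko, against 643, 648 and 551 in het (difference -29.3, exact permutation p = 0.5). The groups overlapped, and list length ran alike, from 55733 to 87496 peaks in ko and 67201 to 90326 in het. With lists of equal length the difference was 4, and without ko replicate 4 it was 1.5. Regions selective for ko lay within 50 kb of 5 members (5.68%, beside 12.6% of tested genes), namely Atp5j2, Cox6b2, Cox7b, Ndufb6 and Uqcr10. Regions selective for het lay near 16 members (18.2%, beside 21.2%), and only that at Ndufaf4 was within 1 kb. RNA of ko and het EC was not analysed here.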

How the data were processed

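The authors deposited 1 table of read counts per gene and 1 peak list per library. Counts came from featureCounts 1.6.3 on mm10 with strand setting 1 and no option to keep overlapping or multi-mapped reads, per the file headers. The submitters' processing notes name, with no role, deepTools 3.3.1, MACS2 2.2.4, STAR 2.7.3a, Bowtie2 2.2.9 and Bowtie 1.1.1. Each deposited peak carries the authors' fold over background and −log10 p and q values, used here only to rank (by fold) or filter peaks within a list. An EC-only count table equalled the joint table in all 48842 cells and added nothing.

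The main RNA test was edgeR 4.0.16 in R 4.3.3, by the quasi-likelihood method after TMM scaling and filterByExpr, with Benjamini-Hochberg adjustment over all genes at 0.05. Standard errors are the log2 fold change over the root of F, and DESeq2 1.42.0 was the other tool. CPM and RPKM are TMM-scaled, with exon lengths from the table. In simulated counts of 14851 genes the EC against CM test recovered 85.6% of genes changed 2-fold, with 5.8 false calls per run. The simulation changed only a small part of the genes, in random directions. Far more genes differed in these data, so the rates may not hold for them. Replicates differed by more than sampling noise, with chi-square at least 8.05 times its degrees of freedom. Start sites are outermost exon ends. Coordinates are mm10, counted from 1. Peaks sharing at least 1 bp were merged in Python 3.11.15. The members, lists and rules were chosen with earlier results of these data known. Named by rule were members higher or not called, the 10 greatest differences, the ends and the highest CM level of each role, paralogue pairs, the best-ranked GATA4 regions and members with no EC promoter peak. Other members were named for their role after their values were seen. A member that the rule would name is not reported here by name. Alternatives were other scalings, filters, thresholds, distances and each library left out.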

Additional observations from a re-analysis of the deposited data

How the results depend on the processing

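The number of members lower in EC was 77 to 78 under other scalings, no count filter and DESeq2, 73 to 77 with a library left out, and 56 in the test against 2-fold, where the number higher was 0. The median log2 fold change was -1.65 with library size only and -1.74 to -1.65 with a library left out. Replicate numbers did not pair the RNA libraries (correlation of deviations -0.0087 for EC 1 with CM 1). With the replicate block 76 members were lower and 2 higher, Uqcrq being called at 0.33 (edgeR adjusted p = 0.0459), Atp5l and Ndufb3 lost the call, and 49 pathway genes were lower and 1 higher. Pathway genes outside the members were lower in 30 cases in the test against 2-fold. The number higher was 1 with no count filter, the 2-fold test or DESeq2, and 1 to 3 with a library left out. Of 636 values of 49 named members, 598 kept direction and call, 29 lost the call, 2 gained it and 7 turned sign. All 7 belonged to members not called. They were Atp5g2 (0.018 with library size only, -0.14 to 0.043 with a library left out), Cox4i2 (-0.33 to 0.42), Cox7b2 (-6.50 to 0.20) and Uqcrq (-0.11 to 0.31).

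GATA4 regions near members depended on lists and distance. Tie2-Cre-selective, Tnnt2-Cre-selective and shared regions numbered 2, 7 and 10 with lists of equal length, 9, 14 and 35 within 20 kb, 39, 81 and 101 within 100 kb, 7, 16 and 19 by nearest start site, and 1, 6 and 11 when 3 of 3 libraries were needed. Shared regions were 34 when a peak had to cover 0.5 of its region. With a library left out the ranges were 1 to 29, 6 to 67 and 15 to 66. The Tie2-Cre minus Tnnt2-Cre difference in members with a peak was then -22.3 to 13.5 within 50 kb and -20 to 0.167 within 1 kb. The ko minus het difference in peaks within 50 kb was 4 with lists of equal length and -60.8 to 1.5 with a library left out. The short lists of the second GATA4 libraries limit what these counts show.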
